A study of Mus musculus with 12 samples.

Results

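Interferon-stimulated genes are the antiviral genes that cells switch on when type I interferon binds its receptor. A list of 39 such genes was followed in mouse liver across 2 oxygen levels and 2 injections. Members were chosen as known interferon-stimulated genes, with earlier results of these data known, and matched to the gene identifiers of the count table by symbol. All 39 were found among the 54838 identifiers, and all 39 passed the filter on low counts that left 13861 genes for testing. The mice were C57BL/6J, and the tissue was whole liver. Hypoxia_DEX mice breathed 7% O2 for 24 h, received dexamethasone (DEX), a synthetic glucocorticoid, at 10 mg/kg into the peritoneum and were sampled 2 h later. Hypoxia_PBS mice had the same oxygen exposure and an injection of PBS. Normoxia_DEX mice breathed 21% O2 and received the same dose of DEX, and Normoxia_PBS mice breathed 21% O2 and received PBS. Each group held 3 libraries, which the series describes as biological replicates, and the labels used here give no age or sex. The title of the series asks how low oxygen alters the glucocorticoid receptor. Levels are given as CPM, read counts scaled to the size of the library (counts per 1000000), and differences as log2 fold changes from edgeR's quasi-likelihood test. A gene was called at an adjusted p under 0.05, with the Benjamini-Hochberg adjustment over all 13861 tested genes.

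Type I interferons signal through a receptor of the subunits IFNAR1 and IFNAR2, whose kinases JAK1 and TYK2 activate STAT2. With IRF9, STAT2 takes part in a complex that binds the interferon-stimulated response element (ISRE) in the promoters of its target genes. In uninfected tissue a low, constant interferon signal is known to hold many of these genes at a basal level, and several of them, such as the RNA sensors and STAT2 itself, feed back into the pathway. In the liver, hepatocytes, Kupffer cells (the resident macrophages) and sinusoidal endothelial cells can all respond to type I interferon. Glucocorticoids act through the glucocorticoid receptor, a ligand-activated transcription factor known to repress many inflammatory genes.

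Promoter sequence was examined because the ISRE is the element through which type I interferon acts. RefSeq promoter windows on GRCm38.p6, from 250 bases before to 50 bases after the start, were matched for 28 of the 39 members. The ISRE core, spelled GAAA, any 2 bases and GAAA and searched on both strands, lay in a window of 15 of these 28 members (53.6%), against 1131 of all 32851 windows (3.44%). The glucocorticoid receptor's palindromic site, spelled GNACA, any 3 bases and TGTNC, lay in a window of 0 of the 28 members, against 0.47% of all windows. A match is a description of the letters and not a binding site, and a window with no match says nothing about the factor. A window counted once however many matches it held. The 250 bases before the start follow for Oas3, Ifit3b, Isg15 and Ddx60, shown because each was the member of its role group with an ISRE core and the largest fall in hypoxia under PBS, in the 4 role groups where that fall was largest. Capitals mark the ISRE cores. They begin 75 bases before the start in Oas3, at chr5:120777660-120777909 on the minus strand. In Ifit3b, at chr19:34607707-34607956 on the plus strand, they begin 188 and 154 bases before it and read as TTTC, 2 bases and TTTC, the core on the other strand. In Isg15, at chr4:156200819-156201068 on the minus strand, 3 overlapping cores begin 78, 72 and 66 bases before the start. In Ddx60, at chr8:61927837-61928086 on the plus strand, they begin 53 and 19 bases before it.
Oas3: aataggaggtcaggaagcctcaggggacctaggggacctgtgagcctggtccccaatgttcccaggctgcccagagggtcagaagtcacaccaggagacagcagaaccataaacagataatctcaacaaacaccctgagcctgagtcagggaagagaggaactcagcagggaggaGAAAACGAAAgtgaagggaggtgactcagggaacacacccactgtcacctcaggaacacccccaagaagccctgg
Ifit3b: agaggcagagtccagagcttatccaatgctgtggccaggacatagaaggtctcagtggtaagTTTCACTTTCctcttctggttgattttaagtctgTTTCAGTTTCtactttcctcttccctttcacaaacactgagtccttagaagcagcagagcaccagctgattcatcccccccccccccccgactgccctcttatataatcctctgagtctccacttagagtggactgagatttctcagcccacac
Isg15: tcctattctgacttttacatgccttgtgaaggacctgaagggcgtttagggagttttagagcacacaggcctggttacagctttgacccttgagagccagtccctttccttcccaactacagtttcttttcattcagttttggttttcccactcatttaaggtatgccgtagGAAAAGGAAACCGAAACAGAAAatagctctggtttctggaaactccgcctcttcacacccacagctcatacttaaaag
Ddx60: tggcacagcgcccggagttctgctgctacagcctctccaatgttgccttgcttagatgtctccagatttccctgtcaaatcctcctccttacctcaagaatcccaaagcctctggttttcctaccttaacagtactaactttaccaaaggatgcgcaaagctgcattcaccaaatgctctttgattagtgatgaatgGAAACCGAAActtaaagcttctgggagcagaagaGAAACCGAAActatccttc

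Total counts per library ranged from 12464687 to 24715995. The sum of 10 hepatocyte markers ran from 122800 to 159700 CPM over the 12 libraries, which were labelled liver. Hypoxia_DEX-1 and Hypoxia_DEX-3 were much closer to each other than any other replicate pair, with a chi-square of 1.79 per gene, where all other pairs within groups gave 10.5 to 38.5. They still differed by more than sampling noise and were kept as 2 libraries. Hypoxia_DEX-2 and Hypoxia_PBS-1 stood apart from their groups in earlier results of these data, and counts of calls are given below with and without both. Among the members, Hypoxia_PBS-1 was the lowest library of its group for 34 of 39 genes, and Hypoxia_DEX-2 was the highest of its group for 26 of 39. A library numbered 2 was also the one most often highest in the other groups, Hypoxia_PBS-2 for 25, Normoxia_DEX-2 for 30 and Normoxia_PBS-2 for 17 of 39.

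In hypoxia the interferon-stimulated genes were lower as a group, with and without DEX. The list was chosen with earlier results of these data known. In DEX mice 27 of 39 members fell in hypoxia and 1 rose, where 22.2% of all tested genes were lower, 20.7% higher and 42.9% called in either direction. In PBS mice 30 of 39 fell and 0 rose, where 16.8% of all tested genes were lower, 18.9% higher and 35.7% called in either direction. No member was higher in hypoxia under PBS at an unadjusted p under 0.05 either, and DESeq2 also called 0 higher and 30 lower. The median log2 fold change over the 39 members was -0.97 in DEX mice and -1.04 in PBS mice, where the median of all tested genes was -0.02 and 0.01. Leaving out both Hypoxia_DEX-2 and Hypoxia_PBS-1 gave 30 lower and 1 higher in DEX mice, and 27 lower and 1 higher in PBS mice, the 1 higher there being Parp9. That fit called 6106 of 14087 tested genes in either direction in DEX mice and 4625 in PBS mice. All 3 hypoxia libraries lay below all 3 normoxia libraries for 27 members in DEX mice and for 32 in PBS mice, where 29.2% and 22.2% of all tested genes did so. In whole tissue, fewer cells of a type and less RNA per cell cannot be told apart, and this holds for every difference below.

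The 2 comparisons share no library, but their calls use the same estimate of spread, taken over all 12 libraries. In both, 27 members fell. Ifi27, Mx1 and Oasl1 fell under PBS and were not called under DEX, 0 members fell under DEX without being called under PBS, and Lgals3bp was the 1 member higher in hypoxia, under DEX. The remaining 8 members, Eif2ak2, Irf9, Mx2, Parp14, Parp9, Rtp4, Samd9l and Slfn5, were called in neither. Called differences beyond a halving, a log2 fold change under -1, were found for 19 members in DEX mice and 21 in PBS mice. Of the calls, 25 of 28 in DEX mice and 24 of 30 in PBS mice held under every alternative processing and with any 1 library left out. The 7 members whose calls were lost somewhere were Ddx58, Ifit2, Mx1, Oasl1, Stat2, Usp18 and Xaf1.

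**Figure D1:**
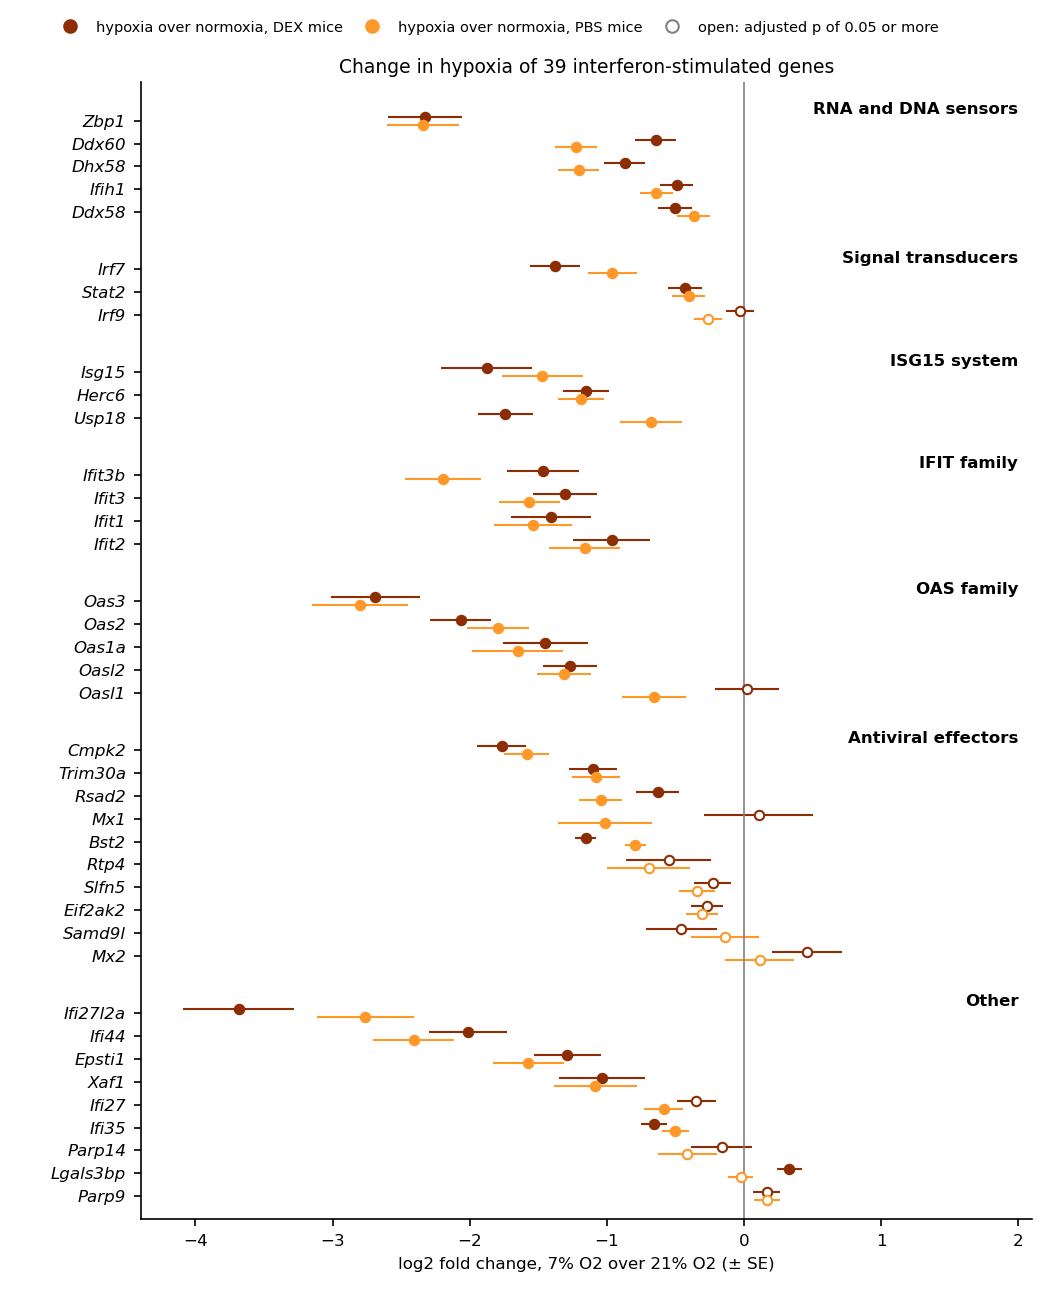
Log2 fold change of each of the 39 genes in 7% O2 over 21% O2, with its SE, in DEX mice (brown, upper point) and PBS mice (orange, lower point), grouped by role; filled points have an edgeR adjusted p under 0.05. All but 5 points in DEX mice and 2 in PBS mice lie left of 0, and Ifi27l2a, Oas3, Zbp1 and Ifi44 lie beyond -2 in both.

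The nucleic acid sensors fell without exception, 5 of 5 in both DEX and PBS mice, where 22.2% and 16.8% of all tested genes fell. Their medians were -0.65 and -1.21. Zbp1 (chr2:173206612-173218923 on the minus strand, mm10), which senses left-handed nucleic acid and can start necroptosis, changed most. It had 2.31, 2.97 and 1.26 CPM in Hypoxia_DEX livers and 1.99, 3.21 and 2.55 CPM in Hypoxia_PBS livers. In normoxia, Zbp1 had 11, 11.8 and 8.7 CPM in Normoxia_DEX livers and 14.1, 15 and 9.76 CPM in Normoxia_PBS livers. Every hypoxia library lay below every normoxia library. The log2 fold change of Zbp1 in hypoxia was -2.33 ± 0.27 (SE, edgeR adjusted p = 2.91e-05) in DEX mice and -2.34 ± 0.26 (SE, edgeR adjusted p = 3.31e-05) in PBS mice. Ddx60, a helicase-like antiviral protein, had 4.68, 4.19 and 4.04 CPM in Hypoxia_DEX livers and 3.39, 3.43 and 4.43 CPM in Hypoxia_PBS livers. In normoxia, Ddx60 had 6.4, 7.63 and 6.09 CPM in Normoxia_DEX livers and 9.39, 9.28 and 7.65 CPM in Normoxia_PBS livers. Its groups did not overlap between oxygen levels, and it fell, with a log2 fold change of -0.65 ± 0.15 (SE, edgeR adjusted p = 0.00398) in DEX mice and -1.23 ± 0.15 (SE, edgeR adjusted p = 6.12e-05) in PBS mice. Dhx58, the RNA helicase LGP2 that tunes the main RNA sensors, had 6.45, 4.72 and 3.99 CPM in Hypoxia_DEX livers and 5.14, 4.6 and 5.24 CPM in Hypoxia_PBS livers. In normoxia, Dhx58 had 9.47, 9.53 and 8.7 CPM in Normoxia_DEX livers and 10.9, 12 and 11.7 CPM in Normoxia_PBS livers. Dhx58 was lower in all 6 hypoxia libraries than in all 6 normoxia libraries, with a log2 fold change of -0.87 ± 0.15 (SE, edgeR adjusted p = 0.000508) in DEX mice and -1.20 ± 0.15 (SE, edgeR adjusted p = 6.51e-05) in PBS mice. Those main sensors, Ifih1 (MDA5) and Ddx58 (RIG-I), had smaller log2 fold changes of -0.49 and -0.50 in DEX mice (edgeR adjusted p = 0.00502 and 0.00534) and -0.64 and -0.37 in PBS mice (edgeR adjusted p = 0.00119 and 0.0313). The Ddx58 call in PBS mice was lost without Hypoxia_PBS-1, alone or with Hypoxia_DEX-2, without Normoxia_PBS-2 or -3, and when other groups were left out of the fit (adjusted p 0.00735 to 0.115 across the alternatives).

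Among the 3 signal transducers, Irf7 and Stat2 fell in both DEX and PBS mice and Irf9 was called in neither. Irf7, the transcription factor that drives interferon-alpha genes, had 16, 19.6 and 16.3 CPM in Hypoxia_DEX livers and 14.4, 24.8 and 24.1 CPM in Hypoxia_PBS livers. In normoxia, Irf7 had 38.3, 52 and 43.8 CPM in Normoxia_DEX livers and 42.5, 41.8 and 38.4 CPM in Normoxia_PBS livers. Its hypoxia and normoxia values did not overlap, and its log2 fold change was -1.38 ± 0.18 (SE, edgeR adjusted p = 0.000132) in DEX mice and -0.96 ± 0.18 (SE, edgeR adjusted p = 0.00185) in PBS mice. Stat2, the subunit that carries the interferon signal to the nucleus, had 48.6, 67.1 and 44.8 CPM in Hypoxia_DEX livers and 75.6, 85.2 and 82.2 CPM in Hypoxia_PBS livers. In normoxia, Stat2 had 73.1, 68.8 and 73.6 CPM in Normoxia_DEX livers and 98.3, 115 and 108 CPM in Normoxia_PBS livers. Stat2 was highest in the 3 Normoxia_PBS libraries and lowest in the 3 Hypoxia_DEX libraries, the group that had both low oxygen and DEX. It fell in hypoxia, with a log2 fold change of -0.43 ± 0.12 (SE, edgeR adjusted p = 0.0125) in DEX mice and -0.40 ± 0.12 (SE, edgeR adjusted p = 0.02) in PBS mice. That call was lost in DEX mice without Hypoxia_DEX-1 or Hypoxia_DEX-3 or with both summed (adjusted p 8.69e-05 to 0.0726 across the alternatives), and in PBS mice without Hypoxia_PBS-1 or Normoxia_PBS-2 (adjusted p 0.00125 to 0.0764 across the alternatives). Irf9, the DNA-binding partner of STAT2, had a log2 fold change of -0.03 ± 0.10 (SE, edgeR adjusted p = 0.83) in DEX mice and -0.26 ± 0.10 (SE, edgeR adjusted p = 0.0554) in PBS mice.

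All 3 genes of the ISG15 system fell in both DEX and PBS mice, where 22.2% and 16.8% of all tested genes fell. Isg15 (chr4:156199424-156200818 on the minus strand) encodes a ubiquitin-like protein that is joined to other proteins during the interferon response. It had 1.95, 2.53 and 1.79 CPM in Hypoxia_DEX livers and 1.99, 6.21 and 5.44 CPM in Hypoxia_PBS livers. In normoxia, Isg15 had 6.86, 9.12 and 6.53 CPM in Normoxia_DEX livers and 11.2, 12.9 and 13.1 CPM in Normoxia_PBS livers. Hypoxia_PBS-1 sat near the Hypoxia_DEX level, apart from the other Hypoxia_PBS libraries, and all 6 hypoxia libraries lay below all 6 normoxia libraries. Isg15 changed in hypoxia by a log2 fold change of -1.88 ± 0.33 (SE, edgeR adjusted p = 0.000866) in DEX mice and -1.47 ± 0.30 (SE, edgeR adjusted p = 0.00269) in PBS mice. Herc6, the ligase that attaches ISG15 in the mouse, had 5.03, 7.34 and 6.09 CPM in Hypoxia_DEX livers and 4.5, 6.86 and 6.24 CPM in Hypoxia_PBS livers. In normoxia, Herc6 had 13.7, 14.3 and 12.5 CPM in Normoxia_DEX livers and 14.4, 14.1 and 11.3 CPM in Normoxia_PBS livers, with no overlap between oxygen levels. Herc6 fell, with a log2 fold change of -1.15 ± 0.17 (SE, edgeR adjusted p = 0.000125) in DEX mice and -1.19 ± 0.17 (SE, edgeR adjusted p = 0.000156) in PBS mice. Usp18 (chr6:121245906-121270917 on the plus strand), the protease that removes ISG15 and also restrains the receptor through IFNAR2, had 20.8, 22.3 and 17.1 CPM in Hypoxia_DEX livers and 6.61, 8.4 and 7.52 CPM in Hypoxia_PBS livers. In normoxia, Usp18 had 46.1, 87.7 and 66 CPM in Normoxia_DEX livers and 11, 12.2 and 12.7 CPM in Normoxia_PBS livers. Usp18 stood out by its level in DEX mice at both oxygen levels, and it was lower in hypoxia than in normoxia after either injection. The log2 fold change of Usp18 in hypoxia was -1.74 ± 0.20 (SE, edgeR adjusted p = 5.88e-05) in DEX mice and -0.68 ± 0.23 (SE, edgeR adjusted p = 0.0373) in PBS mice. The call in PBS mice was lost without Hypoxia_PBS-1, Hypoxia_PBS-3 or any 1 Normoxia_PBS library, without the count filter, and with Hypoxia_DEX-2 and Hypoxia_PBS-1 removed together (adjusted p 0.0035 to 0.158 across the alternatives). Exons of Herc6 overlap those of Gm45193 over 1269 bases on the same strand, which no strand setting separates. Exons of Usp18 overlap those of Gm44148 over 124 bases on the opposite strand, and the strand setting of the counting is not given in the sources used here.

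The 4 IFIT genes, whose proteins bind viral RNA, all fell in DEX and PBS mice, where 22.2% and 16.8% of all tested genes fell. Their medians were -1.36 in DEX mice and -1.55 in PBS mice. Ifit1 had 3.61, 5.59 and 3.47 CPM in Hypoxia_DEX livers and 2.81, 7.23 and 6.85 CPM in Hypoxia_PBS livers. In normoxia, Ifit1 had 9.86, 12.8 and 10.0 CPM in Normoxia_DEX livers and 14.5, 17.2 and 16.8 CPM in Normoxia_PBS livers. Its 6 hypoxia libraries lay below its 6 normoxia libraries, and Hypoxia_PBS-1 was the lowest of all 12. Ifit1 fell, with a log2 fold change of -1.41 ± 0.29 (SE, edgeR adjusted p = 0.00258) in DEX mice and -1.54 ± 0.28 (SE, edgeR adjusted p = 0.00155) in PBS mice. Ifit3 had 2.84, 4.72 and 2.47 CPM in Hypoxia_DEX livers and 2.98, 4.38 and 4.36 CPM in Hypoxia_PBS livers. In normoxia, Ifit3 had 7.71, 9.7 and 6.47 CPM in Normoxia_DEX livers and 11.5, 12.7 and 10.2 CPM in Normoxia_PBS livers. Ifit3 changed by a log2 fold change of -1.31 ± 0.23 (SE, edgeR adjusted p = 0.000607) in DEX mice and -1.56 ± 0.23 (SE, edgeR adjusted p = 0.000189) in PBS mice, with no overlap between oxygen levels. Ifit3b, its neighbour and near copy, had 1.07, 0.961 and 0.735 CPM in Hypoxia_DEX livers and 0.468, 0.876 and 0.671 CPM in Hypoxia_PBS livers. In normoxia, Ifit3b had 2.1, 3.07 and 2.36 CPM in Normoxia_DEX livers and 2.72, 3.67 and 2.7 CPM in Normoxia_PBS livers. The hypoxia libraries held 8 to 18 counts of it. Ifit3b fell, with a log2 fold change of -1.47 ± 0.26 (SE, edgeR adjusted p = 0.000642) in DEX mice and -2.19 ± 0.28 (SE, edgeR adjusted p = 6.98e-05) in PBS mice. Ifit3 and Ifit3b share 61.8% and 55.2% of their 31-base words with other genes, mostly with each other, so the counting could split or lose their reads and the value of each alone is uncertain. Summed, the pair had 3.91, 5.68 and 3.20 CPM in Hypoxia_DEX livers and 3.45, 5.26 and 5.04 CPM in Hypoxia_PBS livers, against 9.81, 12.8 and 8.83 CPM in Normoxia_DEX livers and 14.2, 16.4 and 12.9 CPM in Normoxia_PBS livers. The sum kept the separation, with all 6 hypoxia libraries below all 6 normoxia libraries.

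Of the 5 OAS genes, 4 fell in DEX mice and 5 in PBS mice, where 22.2% and 16.8% of all tested genes fell. OAS enzymes make a short adenylate chain that activates the RNA-cutting enzyme RNase L, and the like-named Oasl genes are their relatives. Oas3, at chr5:120753098-120777661 on the minus strand, had 0.592, 0.612 and 0.63 CPM in Hypoxia_DEX livers and 0.585, 0.511 and 0.336 CPM in Hypoxia_PBS livers. In normoxia, Oas3 had 4.02, 5.22 and 2.55 CPM in Normoxia_DEX livers and 4, 3.72 and 2.37 CPM in Normoxia_PBS livers. Those hypoxia values rest on 5 to 12 counts per library and the normoxia values on 36 to 126, and they do not overlap. Oas3 was 6.45-fold lower in hypoxia in DEX mice and 6.95-fold lower in PBS mice, log2 fold changes of -2.69 ± 0.33 (SE, edgeR adjusted p = 3.27e-05) in DEX mice and -2.80 ± 0.35 (SE, edgeR adjusted p = 6.3e-05) in PBS mice. Oas2 had 2.19, 2.62 and 2 CPM in Hypoxia_DEX livers and 1.81, 2.92 and 2.15 CPM in Hypoxia_PBS livers. In normoxia, Oas2 had 7.88, 11.3 and 8.83 CPM in Normoxia_DEX livers and 9.21, 8.46 and 5.93 CPM in Normoxia_PBS livers, again with no overlap. Oas2 fell, with a log2 fold change of -2.06 ± 0.22 (SE, edgeR adjusted p = 1.29e-05) in DEX mice and -1.79 ± 0.22 (SE, edgeR adjusted p = 6.43e-05) in PBS mice. Oas1a had 0.947, 1.75 and 1.73 CPM in Hypoxia_DEX livers and 0.468, 1.39 and 1.48 CPM in Hypoxia_PBS livers. In normoxia, Oas1a had 4.59, 4.31 and 3.05 CPM in Normoxia_DEX livers and 3.53, 3.31 and 3.43 CPM in Normoxia_PBS livers. Hypoxia_PBS-1 was the lowest of the 12, and no hypoxia library reached a normoxia library. Oas1a changed by a log2 fold change of -1.45 ± 0.31 (SE, edgeR adjusted p = 0.00205) in DEX mice and -1.65 ± 0.33 (SE, edgeR adjusted p = 0.00188) in PBS mice, and it shares 68.8% of its 31-base words with other genes, chiefly Oas1g, so its reads could be split. Oasl2 fell by 1.27 in DEX mice and by 1.31 in PBS mice in log2 fold change (adjusted p by edgeR 0.000228 and 0.000253). Oasl1 was called in PBS mice alone, at -0.65 ± 0.23 (SE, edgeR adjusted p = 0.0453), against 0.02 ± 0.23 (SE, edgeR adjusted p = 0.947) in DEX mice, and the difference between these changes was not called (edgeR adjusted p = 0.438). The PBS call was lost in 11 of the alternatives (adjusted p 0.0111 to 0.147 across the alternatives).

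The antiviral effectors were mixed, with 4 of 10 lower in DEX mice and 5 of 10 in PBS mice. Beside them, 22.2% and 16.8% of all tested genes were lower. Cmpk2, a mitochondrial nucleotide kinase, had 1.42, 1.57 and 1.79 CPM in Hypoxia_DEX livers and 2.28, 2.48 and 2.89 CPM in Hypoxia_PBS livers. In normoxia, Cmpk2 had 5.67, 6.09 and 4.54 CPM in Normoxia_DEX livers and 7.59, 8.46 and 6.86 CPM in Normoxia_PBS livers. Its hypoxia libraries lay well below the normoxia libraries, and it fell, with a log2 fold change of -1.77 ± 0.18 (SE, edgeR adjusted p = 8.38e-06) in DEX mice and -1.59 ± 0.17 (SE, edgeR adjusted p = 1.52e-05) in PBS mice. Trim30a, which restrains NF-kB signalling in mouse macrophages, had 6.86, 7.6 and 6.56 CPM in Hypoxia_DEX livers and 5.32, 9.2 and 7.25 CPM in Hypoxia_PBS livers. In normoxia, Trim30a had 12.7, 17.7 and 14.4 CPM in Normoxia_DEX livers and 15, 16.7 and 13.9 CPM in Normoxia_PBS livers. Trim30a changed by a log2 fold change of -1.10 ± 0.17 (SE, edgeR adjusted p = 0.000259) in DEX mice and -1.08 ± 0.17 (SE, edgeR adjusted p = 0.000446) in PBS mice, without overlap. Rsad2, or viperin, makes a chain-terminating nucleotide that stops viral polymerases. It had 9.11, 11.9 and 9.03 CPM in Hypoxia_DEX livers and 6.84, 10.7 and 8.86 CPM in Hypoxia_PBS livers. In normoxia, Rsad2 had 16, 16.6 and 13.4 CPM in Normoxia_DEX livers and 20.0, 17.3 and 16.8 CPM in Normoxia_PBS livers. Rsad2 fell, with a log2 fold change of -0.63 ± 0.16 (SE, edgeR adjusted p = 0.00561) in DEX mice and -1.05 ± 0.16 (SE, edgeR adjusted p = 0.000267) in PBS mice, and its oxygen groups did not overlap. Bst2, or tetherin, holds budding virions on the cell surface. It had 46.5, 46.4 and 52.9 CPM in Hypoxia_DEX livers and 55.5, 59.9 and 63.5 CPM in Hypoxia_PBS livers. In normoxia, Bst2 had 105, 107 and 112 CPM in Normoxia_DEX livers and 99.7, 107 and 103 CPM in Normoxia_PBS livers. Its oxygen groups did not overlap, and its adjusted p was the lowest of the 39 members in both comparisons, with a log2 fold change of -1.15 ± 0.07 (SE, edgeR adjusted p = 2.76e-07) in DEX mice and -0.79 ± 0.07 (SE, edgeR adjusted p = 7.23e-06) in PBS mice. Eif2ak2, the RNA-dependent kinase PKR, and Mx2, Rtp4, Samd9l and Slfn5 were called in neither, with log2 fold changes from -0.55 (Rtp4) to 0.46 (Mx2) in DEX mice and from -0.69 (Rtp4) to 0.11 (Mx2) in PBS mice.

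Of the 9 other members, 5 fell and 1 rose in DEX mice and 6 fell in PBS mice. All tested genes had 22.2% lower and 20.7% higher in DEX mice, and 16.8% lower in PBS mice. Ifi27l2a, at chr12:103442167-103443680 on the minus strand, encodes a small protein of the ISG12 family and had 0.296, 0.699 and 0.263 CPM in Hypoxia_DEX livers and 0.468, 1.17 and 0.873 CPM in Hypoxia_PBS livers. In normoxia, Ifi27l2a had 4.76, 6.84 and 3.3 CPM in Normoxia_DEX livers and 4.81, 5.2 and 6.79 CPM in Normoxia_PBS livers. Its hypoxia values rest on 5 to 16 counts per library and its normoxia values on 53 to 165. Ifi27l2a was 12.9-fold lower in hypoxia in DEX mice and 6.78-fold lower in PBS mice, log2 fold changes of -3.68 ± 0.40 (SE, edgeR adjusted p = 1.58e-05) in DEX mice and -2.76 ± 0.35 (SE, edgeR adjusted p = 8.02e-05) in PBS mice. Ifi44, an interferon-induced antiviral protein, had 1.78, 0.524 and 1.84 CPM in Hypoxia_DEX livers and 0.877, 1.39 and 1.54 CPM in Hypoxia_PBS livers. In normoxia, Ifi44 had 5.44, 6.96 and 5.22 CPM in Normoxia_DEX livers and 6.03, 7.08 and 6.99 CPM in Normoxia_PBS livers. Ifi44 changed by a log2 fold change of -2.01 ± 0.29 (SE, edgeR adjusted p = 0.000116) in DEX mice and -2.41 ± 0.29 (SE, edgeR adjusted p = 5.33e-05) in PBS mice, with no overlap. Epsti1, another interferon-induced gene, had 1.3, 1.4 and 1.52 CPM in Hypoxia_DEX livers and 1.05, 1.02 and 1.07 CPM in Hypoxia_PBS livers. In normoxia, Epsti1 had 2.66, 4.64 and 2.92 CPM in Normoxia_DEX livers and 3.3, 3.57 and 2.5 CPM in Normoxia_PBS livers. Epsti1 was tight in Hypoxia_PBS livers and fell, with a log2 fold change of -1.29 ± 0.24 (SE, edgeR adjusted p = 0.000879) in DEX mice and -1.57 ± 0.26 (SE, edgeR adjusted p = 0.000495) in PBS mice. Xaf1, a pro-apoptotic partner of XIAP, fell, with a log2 fold change of -1.04 ± 0.31 (SE, edgeR adjusted p = 0.0186) in DEX mice and -1.09 ± 0.30 (SE, edgeR adjusted p = 0.0146) in PBS mice, a call lost without Normoxia_PBS-2 in PBS mice (adjusted p up to 0.0568) and in DEX mice without Hypoxia_DEX-1, Hypoxia_DEX-3 or Normoxia_DEX-2 or with Hypoxia_DEX-1 and -3 summed (adjusted p up to 0.0825).

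**Figure D2:**
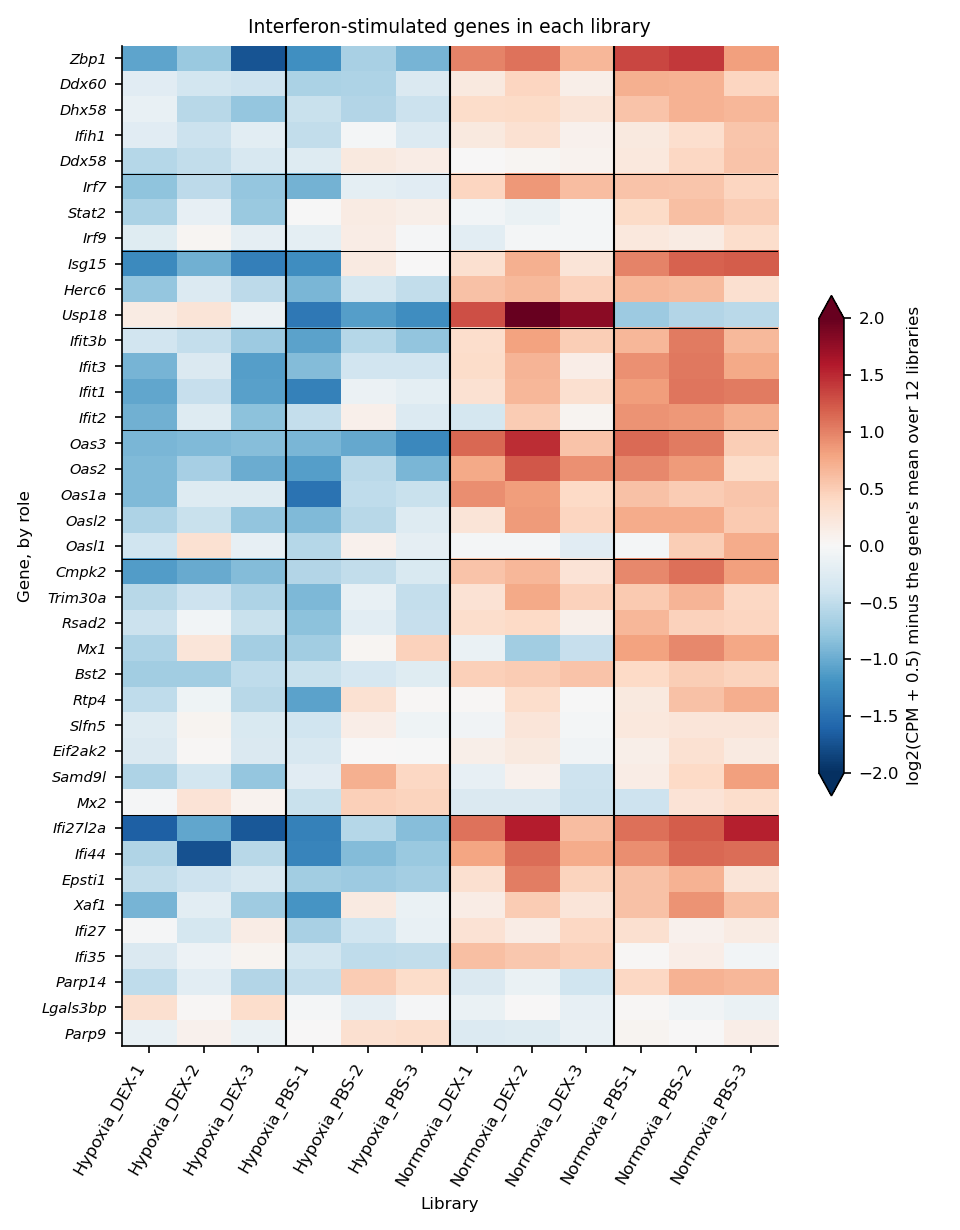
Each row is 1 of the 39 genes, grouped by role between the horizontal lines, and each column 1 of the 12 libraries; the colour gives log2(CPM + 0.5) minus the gene's mean over the 12 libraries, with values beyond 2 drawn at the end colours. Most rows are blue in the 6 hypoxia libraries and red in the 6 normoxia libraries, and Usp18 breaks the pattern with its highest values in the 3 Normoxia_DEX libraries.

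Per library, the median of the members' log2 levels relative to the Normoxia_PBS mean was -1.14, -0.92 and -1.19 in the Hypoxia_DEX libraries and -1.43, -0.75 and -0.88 in the Hypoxia_PBS libraries, against -0.30, -0.11 and -0.35 in the Normoxia_DEX libraries and -0.03, 0.09 and -0.02 in the Normoxia_PBS libraries. All 6 hypoxia libraries lay below all 6 normoxia libraries, and Hypoxia_PBS-1 lay lowest of the 12. Within a group, the highest of 3 libraries exceeded the lowest by a median factor of 1.32 in Hypoxia_DEX, 1.59 in Hypoxia_PBS, 1.3 in Normoxia_DEX and 1.19 in Normoxia_PBS. Of the 4 group means, Normoxia_PBS was the highest for 26 members and the lowest for 0, while Hypoxia_DEX was the lowest for 22 and Hypoxia_PBS for 13. By CPM per kilobase of exon in Normoxia_PBS livers, Bst2 stood highest at 114, followed by Ifi27 at 35.9 and Lgals3bp at 26.9, and Oas3 lowest at 0.476. Of the members lower in hypoxia under PBS, 13 came from the 15 with an ISRE core in the promoter window, 10 from the 13 with none and 7 from the 11 without a window, so members fell both with and without the core. In DEX mice the same counts were 13, 9 and 5. All tested genes had 16.8% lower in PBS mice and 22.2% lower in DEX mice.

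After DEX fewer of these genes were called, some higher and more of them lower. In hypoxia 3 of 39 members rose and 5 fell after DEX, where 6.13% of all tested genes were higher, 7.05% lower and 13.2% called in either direction. In normoxia 2 rose and 7 fell, where 9.38% of all tested genes were higher, 7.4% lower and 16.8% called in either direction. The median log2 fold change over the members was -0.09 in hypoxia and -0.27 in normoxia, with -0.01 and 0.00 for all tested genes. The log2 fold change was negative for 25 of 39 members in hypoxia and for 29 in normoxia. Called in either direction were 8 and 9 of 39, not far from the share of all tested genes. By direction, the 7 of 39 lower in normoxia lie above the 7.4% of all tested genes, and the 2 higher lie below the 9.38%. The 5 of 39 lower in hypoxia lie above the 7.05%. All 3 DEX libraries lay below all 3 PBS libraries for 5 members in hypoxia and 17 in normoxia, where 14.6% and 17.5% of all tested genes did so, and above them for 5 and 2, where 15.3% and 18.4% did so. These 2 comparisons share no library, but their calls also use the same estimate of spread. Usp18 and Ifi35 rose at both oxygen levels, Stat2, Ddx58 and Cmpk2 fell at both, and 27 members were called at neither. Of the 27 members lower in hypoxia in both DEX and PBS mice, 20 were not called after DEX at either oxygen level. Hypoxia_PBS-1 was the lowest of its group for 34 of 39 members, and Hypoxia_DEX-2 was the highest of its group for 26. Removing them by itself makes most DEX responses in hypoxia more negative. The number that fell after DEX depended on single libraries. In hypoxia it was 1 without Hypoxia_DEX-1, Hypoxia_PBS-2 or Hypoxia_PBS-3, 3 without Hypoxia_DEX-2, Hypoxia_DEX-3 or Normoxia_DEX-1, 10 without Hypoxia_PBS-1 and 12 with Hypoxia_DEX-2 removed as well. In normoxia it was 2 without Normoxia_DEX-1, 3 without Normoxia_DEX-3 or without Normoxia_PBS-2 or -3, 11 without Hypoxia_PBS-1 and 13 with Hypoxia_DEX-2 removed as well. The number that rose in hypoxia was 1 without Hypoxia_DEX-3, Hypoxia_PBS-2 or Hypoxia_PBS-3, 2 without Hypoxia_DEX-1 or Normoxia_PBS-2 and 4 with Hypoxia_DEX-2 and Hypoxia_PBS-1 both removed. In normoxia it was 2 in each of these fits. Calls over all tested genes, in either direction, moved with the fit as well. After DEX in hypoxia they were 1827 of 13861 in the main fit and 1072 of 14108 without Hypoxia_DEX-1. Without Hypoxia_PBS-1 they were 2466 of 14111, and 2659 of 14087 with Hypoxia_DEX-2 removed as well. After DEX in normoxia they were 2326 of 13861 in the main fit and 1842 of 14127 without Normoxia_DEX-1. Without Hypoxia_PBS-1 they were 2748, and 3011 with Hypoxia_DEX-2 removed as well.

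Usp18 had the largest DEX response of the list. It averaged 20.1 ± 2.66 CPM in Hypoxia_DEX livers and 7.51 ± 0.896 CPM in Hypoxia_PBS livers, and 66.6 ± 20.8 CPM in Normoxia_DEX livers and 12 ± 0.855 CPM in Normoxia_PBS livers (SD, n = 3 each). All DEX libraries lay above all PBS libraries at either oxygen level. Usp18 was 2.67-fold higher after DEX in hypoxia and 5.58-fold higher in normoxia, log2 fold changes of 1.42 ± 0.22 (SE, edgeR adjusted p = 0.00184) in hypoxia and 2.48 ± 0.21 (SE, edgeR adjusted p = 1.14e-05) in normoxia, and both calls held under every alternative. Per kilobase of exon it reached 7.19 and 2.69 CPM in Hypoxia_DEX and Hypoxia_PBS livers, and 23.9 and 4.29 CPM in Normoxia_DEX and Normoxia_PBS livers. Ifi35, an interferon-induced leucine zipper protein, had 14.7, 16.9 and 18.7 CPM in Hypoxia_DEX livers and 14, 12.6 and 12.7 CPM in Hypoxia_PBS livers. In normoxia, Ifi35 had 27.7, 26.4 and 25.4 CPM in Normoxia_DEX livers and 18.3, 19.9 and 17.3 CPM in Normoxia_PBS livers. Ifi35 rose after DEX without overlap, with a log2 fold change of 0.36 ± 0.10 (SE, edgeR adjusted p = 0.0305) in hypoxia and 0.52 ± 0.09 (SE, edgeR adjusted p = 0.00183) in normoxia. It fell in hypoxia, with a log2 fold change of -0.66 ± 0.10 (SE, edgeR adjusted p = 0.000137) in DEX mice and -0.50 ± 0.10 (SE, edgeR adjusted p = 0.00168) in PBS mice. The Ifi35 call after DEX in hypoxia was lost without Hypoxia_DEX-2 or -3, without Hypoxia_PBS-2 or -3, and when other groups were left out of the fit (adjusted p 0.0165 to 0.14 across the alternatives). Exons of Ifi35 overlap those of the antisense gene Gm11626 over 290 bases. Lgals3bp, a secreted binding partner of galectin-3, had 98.8, 81 and 101 CPM in Hypoxia_DEX livers and 77.7, 70.0 and 78.3 CPM in Hypoxia_PBS livers. In normoxia, Lgals3bp had 72.5, 80.3 and 70.9 CPM in Normoxia_DEX livers and 81.1, 75.8 and 72.6 CPM in Normoxia_PBS livers. Its Hypoxia_DEX libraries were the highest of the 12 except that Normoxia_PBS-1 exceeded Hypoxia_DEX-2. Lgals3bp changed after DEX by a log2 fold change of 0.32 ± 0.09 (SE, edgeR adjusted p = 0.0362) in hypoxia and -0.04 ± 0.09 (SE, edgeR adjusted p = 0.843) in normoxia, and in hypoxia by 0.33 ± 0.09 (SE, edgeR adjusted p = 0.0102) in DEX mice and -0.02 ± 0.09 (SE, edgeR adjusted p = 0.871) in PBS mice. The call after DEX in hypoxia was lost under 7 alternatives (adjusted p 0.00298 to 0.135 across the alternatives).

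**Figure D3:**
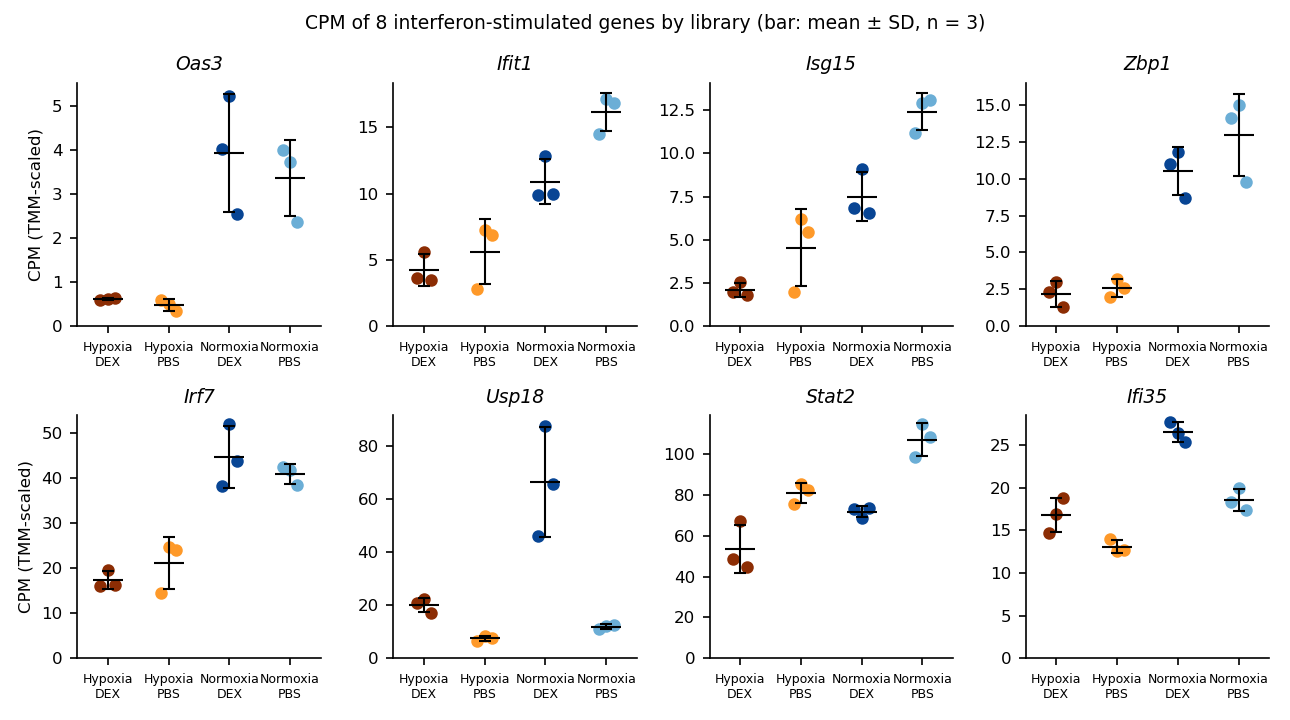
CPM on scaled library sizes of 8 of the genes in each library (points) with mean and SD (bars, n = 3), by group. Oas3, Ifit1, Isg15, Zbp1 and Irf7 are lower in both hypoxia groups than in both normoxia groups, Usp18 and Ifi35 are higher in each DEX group than in the PBS group at the same oxygen level, and Stat2 is lower in each DEX group.

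Stat2 fell after DEX at both oxygen levels. Its mean was 53.5 ± 11.9 CPM in Hypoxia_DEX livers and 81 ± 4.93 CPM in Hypoxia_PBS livers, and 71.8 ± 2.65 CPM in Normoxia_DEX livers and 107 ± 8.22 CPM in Normoxia_PBS livers (SD, n = 3 each), with no overlap at either oxygen level. Its log2 fold change after DEX was -0.60 ± 0.12 (SE, edgeR adjusted p = 0.00562) in hypoxia and -0.58 ± 0.12 (SE, edgeR adjusted p = 0.00471) in normoxia, and the call in hypoxia was lost when the normoxia groups were left out of the fit (edgeR adjusted p = 0.0543). Ddx58 fell, with a log2 fold change of -0.51 ± 0.12 (SE, edgeR adjusted p = 0.016) in hypoxia and -0.37 ± 0.12 (SE, edgeR adjusted p = 0.0485) in normoxia, and Cmpk2 by -0.67 ± 0.20 (SE, edgeR adjusted p = 0.0395) in hypoxia and -0.49 ± 0.15 (SE, edgeR adjusted p = 0.0397) in normoxia. Cmpk2 lost its call under 14 alternatives in hypoxia (adjusted p 0.0391 to 0.16 across the alternatives) and under 6 in normoxia (0.0295 to 0.164), and Ddx58 under 4 in hypoxia (0.0012 to 0.086) and 7 in normoxia (0.00807 to 0.171). Mx1 encodes a GTPase that blocks influenza virus, and the C57BL/6 strains carry a defective allele of it. It had 1.07, 2.36 and 0.998 CPM in Hypoxia_DEX livers and 0.994, 1.97 and 2.82 CPM in Hypoxia_PBS livers. In normoxia, Mx1 had 1.7, 0.995 and 1.24 CPM in Normoxia_DEX livers and 3.71, 4.18 and 3.63 CPM in Normoxia_PBS livers. The 3 Normoxia_PBS libraries stood above the 9 others, and Mx1 fell in normoxia, with a log2 fold change after DEX of -0.45 ± 0.39 (SE, edgeR adjusted p = 0.51) in hypoxia and -1.56 ± 0.35 (SE, edgeR adjusted p = 0.00673) in normoxia. In hypoxia its log2 fold change was 0.11 ± 0.40 (SE, edgeR adjusted p = 0.85) in DEX mice and -1.01 ± 0.34 (SE, edgeR adjusted p = 0.0344) in PBS mice, and the PBS call was lost without Hypoxia_PBS-1, Hypoxia_PBS-2 or any 1 Normoxia_PBS library (adjusted p 0.0147 to 0.104 across the alternatives). Parp14, an ADP-ribosyltransferase of the interferon response, had 33.1, 40.6 and 31.2 CPM in Hypoxia_DEX livers and 33.7, 67.2 and 60.8 CPM in Hypoxia_PBS livers. In normoxia, Parp14 had 38.4, 43 and 35.6 CPM in Normoxia_DEX livers and 63, 76.9 and 75.3 CPM in Normoxia_PBS livers. Normoxia_PBS and Normoxia_DEX did not overlap, Hypoxia_PBS-1 lay with the DEX libraries, and the log2 fold change after DEX was -0.63 ± 0.22 (SE, edgeR adjusted p = 0.093) in hypoxia and -0.88 ± 0.22 (SE, edgeR adjusted p = 0.0188) in normoxia. The Parp14 call in normoxia was lost without Normoxia_DEX-1 or -3, without Normoxia_PBS-2 or -3, and without the count filter (adjusted p 1.16e-05 to 0.0658 across the alternatives).

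Ifit2 had 1.54, 2.8 and 1.73 CPM in Hypoxia_DEX livers and 2.34, 3.72 and 2.75 CPM in Hypoxia_PBS livers. In normoxia, Ifit2 had 2.61, 5.14 and 3.61 CPM in Normoxia_DEX livers and 6.9, 6.73 and 5.93 CPM in Normoxia_PBS livers. Its Normoxia_PBS libraries were the highest of the 12, and it fell after DEX in normoxia, with log2 fold changes of -0.57 ± 0.29 (SE, edgeR adjusted p = 0.235) in hypoxia and -0.77 ± 0.24 (SE, edgeR adjusted p = 0.0464) in normoxia, a call lost under 8 alternatives (adjusted p 0.0096 to 0.165 across the alternatives). In hypoxia Ifit2 fell, with a log2 fold change of -0.97 ± 0.28 (SE, edgeR adjusted p = 0.0134) in DEX mice and -1.16 ± 0.26 (SE, edgeR adjusted p = 0.00362) in PBS mice, and the call in DEX mice was lost without Hypoxia_DEX-1, Hypoxia_DEX-3 or Normoxia_DEX-2 (adjusted p 0.00304 to 0.089 across the alternatives). Samd9l, a translation-blocking restriction factor for poxviruses, had 13.6, 16.4 and 12.2 CPM in Hypoxia_DEX livers and 18.1, 34.9 and 28.5 CPM in Hypoxia_PBS livers. In normoxia, Samd9l had 18.9, 22.7 and 15.7 CPM in Normoxia_DEX livers and 23.5, 28.2 and 37.8 CPM in Normoxia_PBS livers. Samd9l fell after DEX in hypoxia, with log2 fold changes of -0.95 ± 0.26 (SE, edgeR adjusted p = 0.0362) in hypoxia and -0.63 ± 0.25 (SE, edgeR adjusted p = 0.117) in normoxia, a call lost under 10 alternatives (adjusted p 0.00199 to 0.136 across the alternatives). Bst2 fell after DEX in hypoxia and Irf9 in normoxia, by log2 fold changes of -0.29 ± 0.07 (SE, edgeR adjusted p = 0.0198) and -0.34 ± 0.10 (SE, edgeR adjusted p = 0.0298), calls lost under 5 and 3 alternatives.

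**Figure D4:**
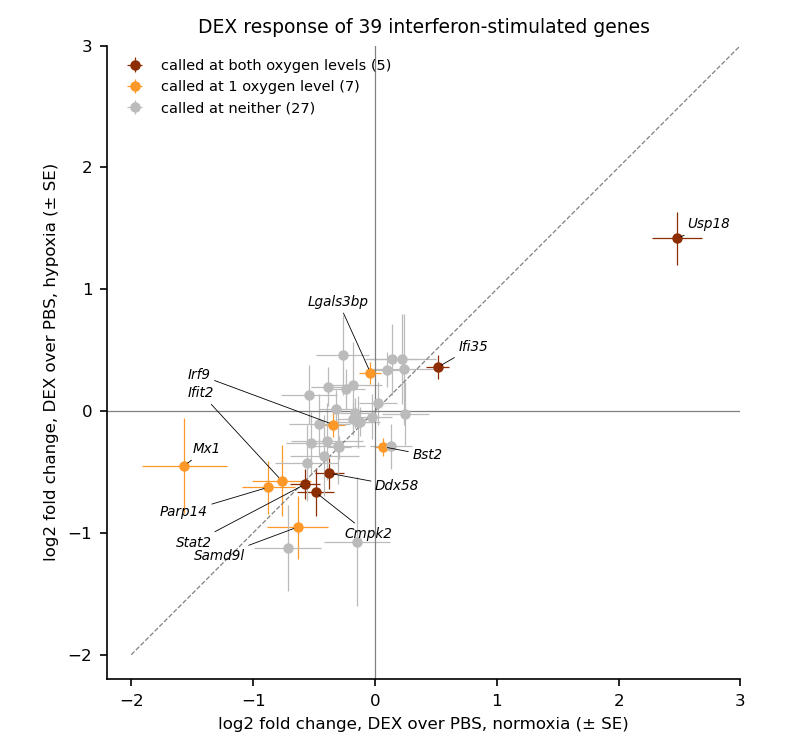
Log2 fold change after DEX of each of the 39 genes in normoxia (horizontal) and in hypoxia (vertical), with SEs; brown points were called at both oxygen levels (5), orange at 1 (7) and grey at neither (27), and the dashed line marks equal change. Usp18 lies alone at the upper right, at 2.48 and 1.42, and the other points lie between -1.57 and 0.52 on the horizontal axis.

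Whether the DEX response differed with oxygen was tested directly as the DEX response in hypoxia minus that in normoxia, which is also the hypoxia response in DEX mice minus that in PBS mice. edgeR called 0 of 39 members in either direction, where 0.325% of all tested genes were higher, 0.996% lower and 1.32% called in either direction. At an unadjusted p under 0.05 there were 4, Ddx60 and Lgals3bp with positive and Usp18 and Bst2 with negative differences, and DESeq2 called 1, Usp18. Usp18 had a difference of -1.06 ± 0.30 (SE, edgeR adjusted p = 0.135), which passed with DESeq2 and without Normoxia_DEX-1 (adjusted p 0.0101 to 0.348 across the alternatives). With Hypoxia_DEX-2 and Hypoxia_PBS-1 removed, Irf7 passed as lower and Lgals3bp as higher (edgeR adjusted p = 0.0299 and 0.0284). Among members called in 1 condition and not in the other, the differences were 1.12 ± 0.53 (SE, edgeR adjusted p = 0.416) for Mx1, 0.24 ± 0.20 (SE, edgeR adjusted p = 0.704) for Ifi27 and -0.36 ± 0.10 (SE, edgeR adjusted p = 0.128) for Bst2. For Ifit2, Irf9, Parp14 and Samd9l they were 0.20, 0.23, 0.25 and -0.32 (edgeR adjusted p = 0.887, 0.557, 0.805 and 0.794). For Oasl1 and Lgals3bp they were 0.68 and 0.35 (edgeR adjusted p = 0.438 and 0.26). Over the list the differences ran from -1.06 to 1.12 with a median of 0.12, and a p that misses the threshold does not show that the responses were alike.

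Upstream of these genes, transcripts of the interferons themselves were at the limit of detection. All 20 type I and type III interferon genes looked up had 0 counts in all 12 libraries. The limit a count of 0 allows is 3 counts, which are 0.121 to 0.241 CPM of the unscaled library totals. Other CPM here use scaled library sizes, on which this limit differs slightly. Reads of the near-identical interferon-alpha genes could be lost in counting, and this limit covers counting error only. Ifng, the type II interferon gene, had 6 counts in all 12 libraries together. Of the 10 receptor and kinase genes, 3 fell in hypoxia in DEX mice and 2 in PBS mice, and 2 fell after DEX in hypoxia and 3 in normoxia, with none higher in any of them by edgeR. In the same order, 22.2%, 16.8%, 7.05% and 7.4% of all tested genes were lower. The counts for hypoxia against normoxia lie near these shares. Ifnar1, a subunit of the type I receptor, had 33.7, 36.8 and 36.2 CPM in Hypoxia_DEX livers and 46.5, 48.6 and 55.7 CPM in Hypoxia_PBS livers. In normoxia, Ifnar1 had 29.1, 31.3 and 32.1 CPM in Normoxia_DEX livers and 42, 45.8 and 45.1 CPM in Normoxia_PBS livers. DEX libraries lay below PBS libraries at both oxygen levels, and Ifnar1 fell after DEX, with a log2 fold change of -0.50 ± 0.08 (SE, edgeR adjusted p = 0.00103) in hypoxia and -0.52 ± 0.08 (SE, edgeR adjusted p = 0.0004) in normoxia. Tyk2, its kinase, fell in hypoxia, with a log2 fold change of -0.47 ± 0.11 (SE, edgeR adjusted p = 0.00337) in DEX mice and -0.43 ± 0.11 (SE, edgeR adjusted p = 0.00681) in PBS mice. Il10rb, which serves the type III receptor, fell after DEX, with a log2 fold change of -0.73 ± 0.21 (SE, edgeR adjusted p = 0.0371) in hypoxia and -1.03 ± 0.21 (SE, edgeR adjusted p = 0.00382) in normoxia.

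Among 19 genes of the pathways that induce interferon, 6 fell and 2 rose in hypoxia in DEX mice and 5 fell in PBS mice, and after DEX 5 fell and 1 rose in hypoxia and 9 fell and 1 rose in normoxia. Shares of all tested genes that fell were, in the same order, 22.2%, 16.8%, 7.05% and 7.4%. Shares that rose were 20.7%, 18.9%, 6.13% and 9.38%. Irf1, a transcription factor induced by interferon-gamma and inflammatory signals, had 46.6, 223 and 49.5 CPM in Hypoxia_DEX livers and 192, 589 and 546 CPM in Hypoxia_PBS livers. In normoxia, Irf1 had 18.6, 17.4 and 17 CPM in Normoxia_DEX livers and 89.7, 235 and 476 CPM in Normoxia_PBS livers. Its spread within groups was wide, with Hypoxia_DEX-2 far above its group and Hypoxia_PBS-1 and Normoxia_PBS-1 below theirs. Irf1 rose in hypoxia in DEX mice, with log2 fold changes of 2.58 ± 0.84 (SE, edgeR adjusted p = 0.0372) in DEX mice and 0.73 ± 0.78 (SE, edgeR adjusted p = 0.505) in PBS mice. That call was lost without Hypoxia_DEX-2 and Hypoxia_PBS-1, at 1.47 (edgeR adjusted p = 0.105). After DEX it fell in normoxia, with log2 fold changes of -2.06 ± 0.81 (SE, edgeR adjusted p = 0.144) in hypoxia and -3.92 ± 0.89 (SE, edgeR adjusted p = 0.0171) in normoxia, and without those libraries it also passed in hypoxia, at -3.53 (edgeR adjusted p = 0.0189). Tlr7, the endosomal sensor of single-stranded RNA, had 5.44, 6.73 and 4.88 CPM in Hypoxia_DEX livers and 2.05, 3.07 and 2.28 CPM in Hypoxia_PBS livers. In normoxia, Tlr7 had 9.58, 12 and 8.64 CPM in Normoxia_DEX livers and 4.58, 4.69 and 3.3 CPM in Normoxia_PBS livers. Tlr7 was higher in every DEX library than in every PBS library of the same oxygen level, with a log2 fold change of 1.20 ± 0.21 (SE, edgeR adjusted p = 0.00236) in hypoxia and 1.26 ± 0.19 (SE, edgeR adjusted p = 0.00035) in normoxia, and in hypoxia its log2 fold change was -0.84 ± 0.19 (SE, edgeR adjusted p = 0.00253) in DEX mice and -0.78 ± 0.22 (SE, edgeR adjusted p = 0.013) in PBS mice. Tlr3, the sensor of double-stranded RNA, fell after DEX, with a log2 fold change of -1.57 ± 0.21 (SE, edgeR adjusted p = 0.000295) in hypoxia and -1.05 ± 0.20 (SE, edgeR adjusted p = 0.00267) in normoxia. Irf5, a macrophage transcription factor of this pathway, fell in hypoxia, with a log2 fold change of -1.06 ± 0.25 (SE, edgeR adjusted p = 0.00531) in DEX mice and -1.38 ± 0.23 (SE, edgeR adjusted p = 0.000779) in PBS mice.

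Of 9 negative regulators tested, 2 rose and 2 fell in hypoxia in DEX mice and 2 rose and 1 fell in PBS mice. These counts lie near the shares of all tested genes, 20.7% higher and 22.2% lower in DEX mice and 18.9% and 16.8% in PBS mice. After DEX edgeR called 0 of the 9 in hypoxia, where 2 passed an unadjusted p under 0.05, and 1 rose and 2 fell in normoxia. All tested genes had 13.2% called after DEX in hypoxia, and 9.38% higher and 7.4% lower in normoxia. Socs1, which blocks JAK kinases, had 4.08, 4.46 and 3.52 CPM in Hypoxia_DEX livers and 3.57, 7.81 and 5.17 CPM in Hypoxia_PBS livers. In normoxia, Socs1 had 1.02, 0.539 and 0.497 CPM in Normoxia_DEX livers and 0.637, 2.45 and 1.58 CPM in Normoxia_PBS livers. Socs1 rose in hypoxia, with a log2 fold change of 2.54 ± 0.45 (SE, edgeR adjusted p = 0.000722) in DEX mice and 1.79 ± 0.39 (SE, edgeR adjusted p = 0.00392) in PBS mice. Socs3, which blocks cytokine receptors of the gp130 family, had 169.6, 125 and 168 CPM in Hypoxia_DEX livers and 275, 197 and 171 CPM in Hypoxia_PBS livers. In normoxia, Socs3 had 28.9, 28.5 and 31.5 CPM in Normoxia_DEX livers and 84.8, 138 and 134 CPM in Normoxia_PBS livers. Socs3 rose in hypoxia, with a log2 fold change of 2.38 ± 0.23 (SE, edgeR adjusted p = 1.97e-05) in DEX mice and 0.85 ± 0.21 (SE, edgeR adjusted p = 0.0105) in PBS mice. After DEX its log2 fold change was -0.47 ± 0.21 (SE, edgeR adjusted p = 0.182) in hypoxia and -2.0 ± 0.22 (SE, edgeR adjusted p = 0.000113) in normoxia, and these DEX responses differed by 1.53 ± 0.30 (SE, edgeR adjusted p = 0.0394). Samhd1, which breaks down deoxynucleotides, fell in hypoxia, with a log2 fold change of -0.94 ± 0.12 (SE, edgeR adjusted p = 6.46e-05) in DEX mice and -0.50 ± 0.12 (SE, edgeR adjusted p = 0.0076) in PBS mice. Of 14 GBP and IRG GTPases, classic targets of interferon-gamma, 5 fell in hypoxia in DEX mice and 2 in PBS mice, at medians of -0.57 and -0.07, and 2 fell after DEX at each oxygen level. Beside these counts, 22.2% and 16.8% of all tested genes fell in hypoxia. After DEX 7.05% fell in hypoxia and 7.4% in normoxia. Gbp3 and Iigp1 fell in both DEX and PBS mice, with log2 fold changes of -1.07 ± 0.24 (SE, edgeR adjusted p = 0.0037) in DEX mice and -0.79 ± 0.23 (SE, edgeR adjusted p = 0.0191) in PBS mice for Gbp3 and of -0.66 ± 0.13 (SE, edgeR adjusted p = 0.00136) in DEX mice and -0.69 ± 0.13 (SE, edgeR adjusted p = 0.00148) in PBS mice for Iigp1. Without Hypoxia_DEX-2 and Hypoxia_PBS-1 the numbers lower after DEX were the same or larger, at 11 of 14 GTPases, 10 of 19 interferon-inducing genes and 8 of 10 receptor and kinase genes in hypoxia, and 4, 9 and 4 of them in normoxia. The numbers lower in hypoxia were then 7, 4 and 4 in DEX mice and 2, 5 and 2 in PBS mice, where 3, 3 and 1 were higher. That fit called, in either direction, 2659 and 3011 of 14087 tested genes after DEX in hypoxia and in normoxia. For hypoxia against normoxia it called 6106 in DEX mice and 4625 in PBS mice. In the summed CPM of each of these lists, Hypoxia_PBS-1 was the lowest and Hypoxia_DEX-2 the highest of its group. Removing them by itself favours falls after DEX in hypoxia.

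Some markers of hepatocytes and of several non-parenchymal cell types were also lower in hypoxia. Shares of all tested genes were 22.2% lower and 20.7% higher in DEX mice, and 16.8% and 18.9% in PBS mice. After DEX the shares were 7.05% lower and 6.13% higher in hypoxia, and 7.4% and 9.38% in normoxia. Of 14 Kupffer cell markers, 13 fell in DEX mice and 12 in PBS mice, with 0 higher by edgeR, at medians of -1.26 and -1.19. Their summed level was 399 to 441 CPM in Hypoxia_DEX livers and 383 to 411 CPM in Hypoxia_PBS livers, against 751 to 1062 CPM in Normoxia_DEX livers and 615 to 847 CPM in Normoxia_PBS livers, with no overlap between oxygen levels. Without Hypoxia_DEX-2 and Hypoxia_PBS-1 the counts were again 13 and 12. After DEX edgeR called 0 of the 14 in hypoxia, where 1 passed an unadjusted p under 0.05, and 1 in normoxia, which was higher. Of 12 endothelial markers, 6 fell in DEX mice and 8 fell and 1 rose in PBS mice, and their sum was 514 to 528 CPM in Hypoxia_DEX livers and 502 to 521 CPM in Hypoxia_PBS livers, against 610.0 to 676 CPM in Normoxia_DEX livers and 598 to 651 CPM in Normoxia_PBS livers. After DEX 2 endothelial markers rose and 2 fell in hypoxia, and 4 rose and 2 fell in normoxia. Of 10 stellate cell markers, 8 fell in DEX mice and 5 in PBS mice, and their sum was 433 to 452 CPM in Hypoxia_DEX livers and 359.7 to 414 CPM in Hypoxia_PBS livers, against 531 to 569.7 CPM in Normoxia_DEX livers and 399 to 527 CPM in Normoxia_PBS livers. Lymphocyte markers were scarce, with 9 of 14 tested, 1 and 4 of them lower in DEX and PBS mice, and a sum of 4.19 to 7.22 CPM in Hypoxia_DEX livers and 4.33 to 6.51 CPM in Hypoxia_PBS livers, against 5.53 to 7.2 CPM in Normoxia_DEX livers and 9.23 to 12.2 CPM in Normoxia_PBS livers. Of 10 plasmacytoid dendritic cell markers 3 were tested, with 2 lower and 1 higher in both DEX and PBS mice, and Siglech, which defines that cell, had at most 0.866 CPM. No marker of these lists was at 0 in every library. Of 6 neutrophil markers tested, 1 rose in DEX mice and 0 were called in PBS mice by edgeR, where 1 passed an unadjusted p under 0.05, and 2 fell after DEX at each oxygen level. Of 5 cholangiocyte markers tested, 0 and 2 fell in DEX and PBS mice, and of 10 hepatocyte markers 5 and 4 fell, with a summed level of 139000 to 144200 CPM in Hypoxia_DEX livers and 128200 to 148100 CPM in Hypoxia_PBS livers, against 147000 to 159700 CPM in Normoxia_DEX livers and 122800 to 132400 CPM in Normoxia_PBS livers. The part of these cell types in the lower interferon-stimulated genes was not tested.

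**Figure D5:**
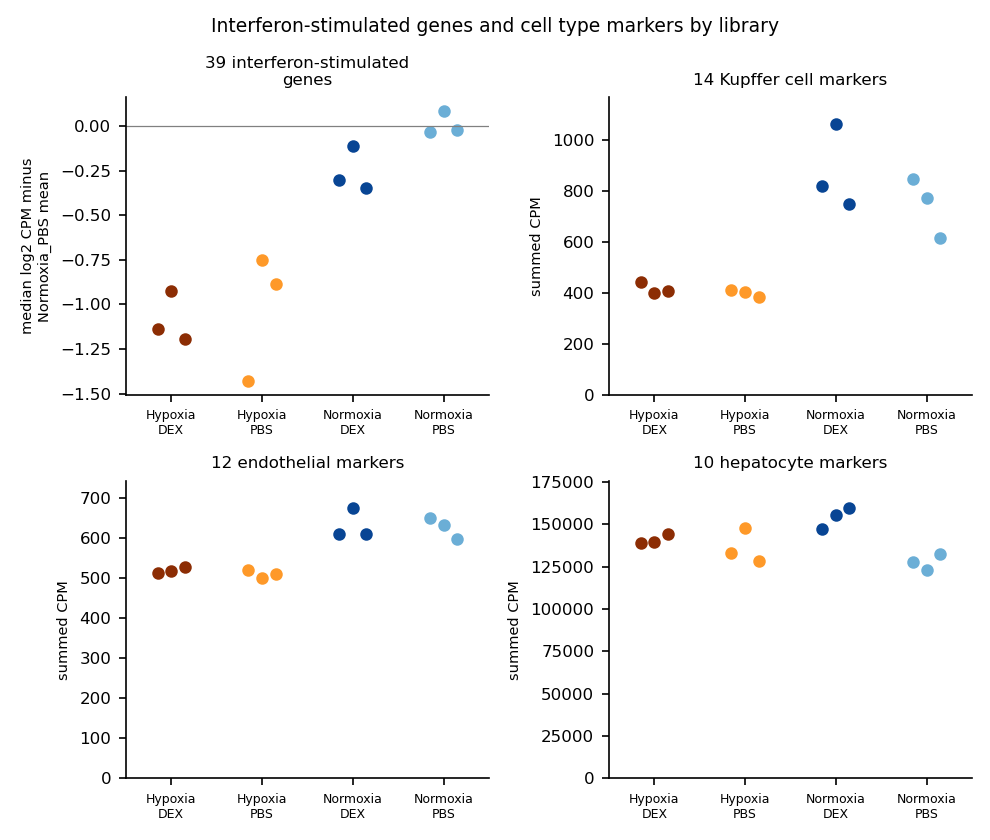
Points are libraries, by group: the median log2 level of the 39 genes relative to the Normoxia_PBS mean, and the summed CPM of 14 Kupffer cell, 12 endothelial and 10 hepatocyte markers, on axes that start at 0 for the sums. The genes, the Kupffer markers and the endothelial markers are lower in all 6 hypoxia libraries than in all 6 normoxia libraries. The 6 hepatocyte sums in hypoxia lie within the range of the 6 in normoxia when both injections are pooled. In DEX mice the hepatocyte sums in hypoxia all lie below those in normoxia. In PBS mice they overlap, with a higher mean in hypoxia (136500 against 127600 CPM).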

How the data were processed

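Liver mRNA of C57BL/6J mice was sequenced in 12 libraries, 3 in each of 4 groups taken from the labels. The deposited table holds raw whole-number counts per gene made by the authors, with no normalization. The submitters' processing notes name Trimmomatic, HISAT2 2.0.4, SAMtools, featureCounts and DESeq2 and the mm10 build, without roles, and per the labels' protocols the library kit was stranded. Which annotation and strand setting the counting used is not given in the sources used here. A treatment protocol among the labels names hypoxia for mice at either oxygen level, and the sample titles, which name normoxia, were followed. Depth ranged from 12464687 to 24715995 counts.

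The deposited counts went into edgeR 4.0.16 on R 4.3.3 (filterByExpr, TMM, robust glmQLFit and glmQLFTest). The model had 1 mean for each group, used all 12 libraries and left 8 residual degrees of freedom, and p-values were adjusted by Benjamini-Hochberg over 13861 genes in each of 5 comparisons. SEs are the log2 fold change over the square root of F. The fitting was tested on simulated data. The alternatives tried were DESeq2 1.42.0, RLE size factors, all genes kept, a block for the replicate number, fits without the groups not compared, each library removed in turn, the summed pair of Hypoxia_DEX-1 and Hypoxia_DEX-3, and removal of both Hypoxia_DEX-2 and Hypoxia_PBS-1. Deviations from the group means correlated over 0.1 in 4 of 18 same-numbered pairs of libraries (range -0.151 to 0.39), not in every pair, so numbers were not treated as pairs.

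The members, pathway lists and marker lists were chosen with earlier results of these data known. Values of 1 pathway gene are not reported here. Full values are given, per role group, for up to 3 members with the largest called change in hypoxia under PBS, for up to 3 per direction in each DEX comparison and for members called against their group, and for up to 3 called genes per pathway list. Lengths, exon overlaps and shared 31-base words are from GENCODE release M21 on GRCm38, whose exons overlap another gene's in 12 members. Promoters are from RefSeq. Figures were drawn with matplotlib 3.10.9.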

Additional observations from a re-analysis of the deposited data

How the results depend on the processing

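No called difference changed direction under any alternative, while differences that were not called crossed 0 under some, such as Mx1 in hypoxia in DEX mice (log2 fold change -0.30 to 0.35) and Oas3 after DEX in normoxia (-0.04 to 0.45). Over all members and comparisons, 3464 of 3665 values kept their side of the threshold, 116 lost a call and 85 gained one. With RLE size factors every member kept its side of the threshold. With 1 library left out, the number of members lower in hypoxia ran from 24 to 28 in DEX mice and from 24 to 33 in PBS mice, and the number higher from 1 to 2 and from 0 to 1. After DEX in hypoxia the range was 1 to 10 lower and 1 to 3 higher, after DEX in normoxia 2 to 11 lower and 2 higher, and for the difference between these responses 0 to 1 lower and 0 higher. Over all 14090 to 14148 tested genes, those fits called 4757 to 6370 in hypoxia in DEX mice and 3801 to 5094 in PBS mice. After DEX they called 1072 to 2466 genes in hypoxia and 1687 to 2748 in normoxia, and 63 to 306 differences. Fits without the groups not compared gave other counts: 2 members were higher in hypoxia in DEX mice, 12 were lower after DEX in normoxia, and 0 were lower and 1 was higher after DEX in hypoxia by edgeR. In the same order, those fits called 6185 of 13168, 2500 of 13244 and 1180 of 13041 tested genes in either direction. The main fit called 5943, 2326 and 1827 of 13861. Without the count filter 3 were lower after DEX in hypoxia, and with Hypoxia_DEX-1 and Hypoxia_DEX-3 summed also 3. Called there over all genes were 1664 of 25786 and 1160 of 14118. Without both Hypoxia_DEX-2 and Hypoxia_PBS-1, 1 member was higher in hypoxia in PBS mice, 13 were lower after DEX in normoxia and 12 in hypoxia, and the difference had 1 higher and 1 lower. DESeq2 called 1 lower difference. Over all genes, the fit without both libraries called 475 of 14087 differences, and DESeq2 called 371. The cause of these shifts was not tested.

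The replicate number as a block gave 29 members lower in hypoxia in DEX mice, 34 in PBS mice, 6 lower after DEX in hypoxia and 10 in normoxia, and 0 called differences between the DEX responses, but not every same-numbered pair deviated together. In the same order, the block fit called 5917, 4945, 1852, 2386 and 180 of all 13861 tested genes in either direction. With 3 libraries a group, members near 1 CPM rest on few counts, and small differences may be missed. For reads shared between near copies or overlapping genes, values of single genes are uncertain.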
